A study of Mus musculus with 8 samples.

Results

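Trpc2, Gucy1b2, Gnao1, Gnai2, Tfap2e and Meis2 are 6 genes known from chemosensory cells outside the main population of odorant-sensing neurons. Trpc2, Gnao1, Gnai2, Tfap2e and Meis2 belong to signalling or identity of vomeronasal neurons, and Gucy1b2 and Trpc2 mark type B cells of the main epithelium. They were taken by symbol from the 54982 gene rows of the expression table, whatever their values. All 6 had a row, 5 had at least 1 read, and 4 had enough reads to test. The study asked whether a pair of candidate enhancers, TE1 and TE2, is needed for expression of trace amine-associated receptor genes in the nose. RNA came from dissected olfactory mucosa of mice at postnatal day 30, labelled male and of 129S6;C57BL/6J strain in both groups. Of the 8 libraries, 4 were from controls and 4 from mice with the T element deletion, ΔTE1+2. The labels give no line, litter or breeding scheme, and do not say whether each library is a separate animal, so p-values measure the spread between these libraries.

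Vomeronasal neurons detect pheromones and other social chemical cues with receptors of the V1R, V2R and formyl peptide families. Neurons of the apical layer use V1R receptors with the G protein subunit encoded by Gnai2, and those of the basal layer use V2R receptors with the subunit encoded by Gnao1. In both layers the signal opens the cation channel encoded by Trpc2. The transcription factor gene Tfap2e is used by basal and Meis2 by apical vomeronasal neurons. Type B cells are rare cells of the main olfactory epithelium that have Trpc2 and Gucy1b2, a subunit of soluble guanylyl cyclase, the enzyme that makes cyclic GMP, and they have been described as sensing low oxygen in inhaled air. Gnao1, Gnai2 and Meis2 are also used by many other cells. In bulk tissue, fewer cells of a type and less RNA per cell cannot be told apart.

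Libraries held 31655524 to 50748777 reads. Values below are scaled reads, which are reads per gene divided by the size factor of the library. The library labelled deletion replicate 3 went against its sex label: Xist, expressed from the inactive X chromosome of females, had 16142 reads there and 5 to 94 reads in the other libraries, while the Y-linked Ddx3y, Uty, Kdm5d and Eif2s3y had 6 to 18 reads each there and 1172 to 3912 elsewhere. The number of rows with at least 1 read ran from 31242 in deletion replicate 1 to 45146 in control replicate 3, with deletion replicate 4 next at 40965. The summed markers of respiratory and of sustentacular epithelium did not overlap between groups, as was the case for 2.2% of single genes tested. The respiratory sum, of which Bpifa1 made up 82.5%, was 4556 to 7939 CPM in controls and 8195 to 8855 in deletion libraries. Of its 7 tested genes 0 were called (limma; 0.0728% of all tested genes were), 2 had an unadjusted p under 0.05 (3.5% of all), and all 7 estimates were positive with a median log2 fold change of 0.43. The sustentacular sum, of which Cyp2g1 made up 38.9%, was 6574 to 8472 CPM and 8746 to 8875, with 5 positive and 1 negative estimate among 6 tested genes and 0 called. Their part in the results below was not tested.

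The dissected tissue carried little vomeronasal receptor RNA. Over the 344 Vmn1r rows, summed CPM, which are reads scaled to the library total, were 4.24, 15.02, 76.7 and 13.6 across controls 1 to 4, against 4.70, 4.98, 4.67 and 24.0 across deletion libraries 1 to 4. Over the 226 Vmn2r rows they were 5.20, 9.50, 45.9 and 10.14 in controls and 5.45, 5.09, 4.15 and 16.2 in deletion libraries. The highest library of each group was control replicate 3 or deletion replicate 4, the same libraries that had the most rows with reads. Odorant receptors, by comparison, took 6629 to 8212 CPM in every library. The median vomeronasal receptor row held 6 reads over all 8 libraries, and 12 of the 570 rows passed the filter on low counts, with 0 of the 12 called (limma, 0 at an unadjusted p under 0.05, against 3.5% of all tested genes).

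Other defining genes of vomeronasal neurons also took few reads. The 5 formyl peptide receptor genes of the vomeronasal list took 0 to 0.379 CPM together, with Fpr3 at 0 reads in all libraries. The 9 H2-M genes, which encode class I-like molecules of V2R neurons, took 2.59 to 4.92 CPM in controls and 1.52 to 3.21 CPM in deletion libraries. Unlike the receptor sums, the H2-M sum was highest in control replicate 2 and deletion replicate 1. Lcn3 and Lcn4, lipocalins of the vomeronasal and septal glands, were in contrast abundant. Lcn3 had 8346 to 19950.5 scaled reads in controls and 4250.1 to 16477 in deletion libraries, with the lowest value in deletion replicate 2. The label vomeronasal names what these genes are known for, and which cells gave the reads of the widely used members was not tested.

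**Figure D1:**
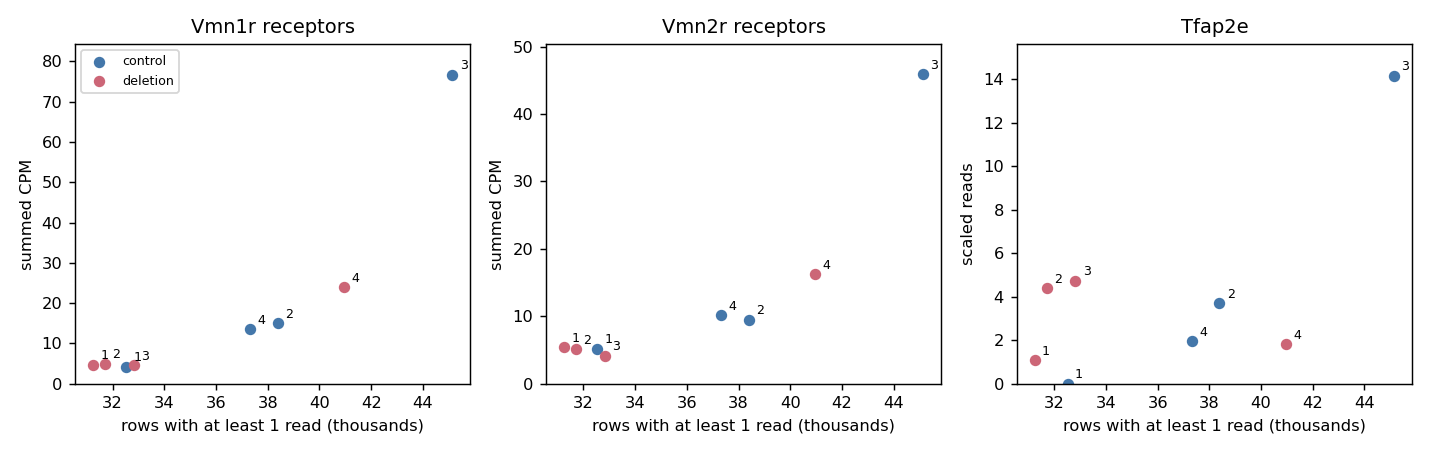
Summed CPM of the Vmn1r and Vmn2r receptors and scaled reads of Tfap2e against the number of rows with at least 1 read, 1 point per library (blue control, red deletion, the digit is the replicate). Control replicate 3 is highest in all 3 panels, at 76.7 CPM, 45.9 CPM and 14.2 scaled reads, and deletion replicate 4 stands next in both receptor panels but not for Tfap2e.

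Trpc2 (ENSMUSG00000100254.1) encodes the transduction channel shared by vomeronasal neurons and type B cells. Its row held 0 reads in all 8 libraries, so it gives no level and no comparison. In the GRCm38 annotation the gene spans chromosome 7, positions 102083116 to 102096396, on the plus strand. All 2874 of its exon bases also lie in exons of 2 other genes on the same strand, 2803 in the readthrough gene Xntrpc and 71 in the upstream gene Xndc1. The row shares this state with others: 129 protein-coding rows had no exon base of their own, and all 129 held 0 reads, against 3.52% of the 21851 protein-coding rows with bases of their own. A 0 in the Trpc2 row therefore does not bear on whether the channel was expressed.

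**Figure D2:**
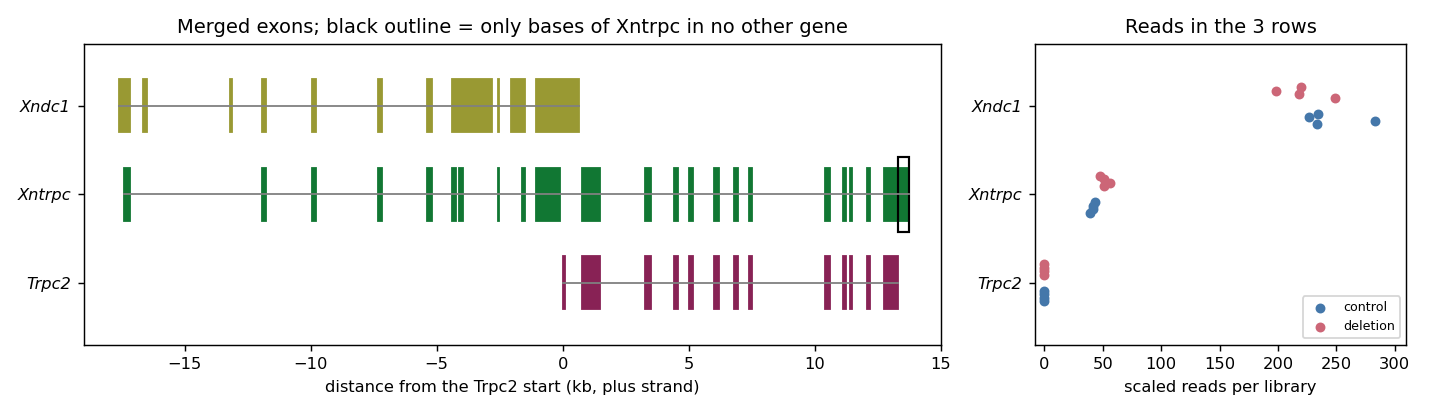
Left, merged exons of Xndc1, Xntrpc and Trpc2 as boxes, by distance in kb from the Trpc2 start; the black outline marks the 468 bases of Xntrpc found in no other gene, just past the end of Trpc2. Right, scaled reads of the 3 rows in each library (blue control, red deletion), where Trpc2 is at 0 throughout and the groups do not overlap for Xntrpc.

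The overlapping genes did receive reads. Xntrpc (ENSMUSG00000070425.13, positions 102065713 to 102096864), annotated as a readthrough of Xndc1 into Trpc2, has 468 exon bases of its own, and these form 1 stretch from 102096397 to 102096864, directly after the annotated end of Trpc2. It had 38.9, 41.6, 41.2 and 43.3 scaled reads across controls 1 to 4, against 50.9, 56.2, 51.2 and 47.5 across deletion libraries 1 to 4. All deletion libraries were higher than all controls. The fold change, always given here as log2 of deletion over control, was 0.31 with an SE of 0.19 (95% interval -0.10 to 0.72), and did not pass (limma, Benjamini-Hochberg adjusted p = 0.869), and non-overlapping groups were found for 2.2% of the genes tested. With 32 to 54 reads per library, these values carry a large counting error. Whether the reads come from readthrough transcripts or from a longer Trpc2 end cannot be told apart here.

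Xndc1 (ENSMUSG00000099481.6, 102065511 to 102083765), which ends inside Trpc2, had 233, 283, 227 and 234 scaled reads across controls 1 to 4, against 249, 218, 198 and 220.1 across deletion libraries 1 to 4. The groups overlapped, and control replicate 2 was highest. Its log2 fold change was -0.14 ± 0.13 (SE; 95% interval -0.42 to 0.14; limma adjusted p = 0.869), so the genes at the ends of the Trpc2 locus had estimates of opposite sign and neither passed.

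Gucy1b2 (ENSMUSG00000021933.11) was the member tied most closely to type B cells, and no other gene shares its exon bases. It spans 62392676 to 62456289 on the minus strand of chromosome 14. It had 373, 201, 282 and 222 scaled reads across controls 1 to 4, against 300.0, 237, 128 and 184 across deletion libraries 1 to 4. The groups overlapped, with the highest value in a control and the lowest in deletion replicate 3. The control mean was 269 ± 77.0 and the deletion mean 212 ± 73.4 (SD, n = 4 each). The log2 fold change was -0.37 ± 0.27 (SE; 95% interval -0.96 to 0.22), a difference within the spread between libraries (limma adjusted p = 0.869). Without deletion replicate 3, the library that went against its sex label, it was -0.15 ± 0.23 (limma adjusted p = 0.862). It was -0.20 without control replicate 1 and -0.56 without deletion replicate 1, and was not called in either case. At this spread, differences down to the lower bound of the interval could not be separated from none.

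Within each group, Gucy1b2 was lowest in the library with the lowest summed markers of mature olfactory neurons. That sum was 11051 CPM in control 2 (other controls, 12569 to 12747) and 12097 CPM in deletion library 3 (other deletion libraries, 12954 to 13192), with 10 of 10 markers tested. The part of this in the Gucy1b2 values was not tested. Gucy2d, the guanylyl cyclase of necklace neurons, which also use cyclic GMP, was also lowest of the deletion libraries in replicate 3. It had 136 scaled reads there, against 193 to 308 in the others. Among controls Gucy2d did not follow Gucy1b2. Its controls lay between 180.0 and 202, with the highest value in control 2.

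The upstream sequences of Gucy1b2, the member specific to type B cells, and of Tfap2e, the member nearest to 0, are shown for comparison. Each is the 250 bases before the RefSeq start, 5′ to 3′ on the strand of the gene, in GRCm38.p6, and capitals mark matches to any of 4 motifs searched on both strands.
Gucy1b2, chr14:62456290-62456539, minus strand: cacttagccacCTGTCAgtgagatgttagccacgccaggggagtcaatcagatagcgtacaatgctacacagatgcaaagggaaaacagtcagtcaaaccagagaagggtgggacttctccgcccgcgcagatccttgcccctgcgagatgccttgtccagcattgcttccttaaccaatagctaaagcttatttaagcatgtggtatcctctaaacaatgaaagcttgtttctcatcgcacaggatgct
Tfap2e, chr4:126736270-126736519, minus strand: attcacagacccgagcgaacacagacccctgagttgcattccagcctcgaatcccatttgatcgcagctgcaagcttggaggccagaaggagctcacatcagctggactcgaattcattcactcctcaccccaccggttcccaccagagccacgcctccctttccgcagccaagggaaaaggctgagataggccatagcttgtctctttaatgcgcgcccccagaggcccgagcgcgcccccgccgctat

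The motifs were the palindrome of Ebf factors, TAATTA for LIM homeodomain factors, TGACAG for Meis factors and GCCNNNGGC for AP-2 factors. The Gucy1b2 window held 1 match, to the Meis motif on the opposite strand, and the Tfap2e window held 0. Of 32526 such windows over all genes, 15.8% held the Meis motif, 0.787% the Ebf motif, 4.84% the LIM homeodomain motif and 13.8% the AP-2 motif. Of the 6 members, 5 had a RefSeq window, and those of Trpc2, Gnao1 and Meis2 held 0 matches. The windows of Gnao1 and Meis2 lie inside the gene by the positions given below, and that of Trpc2 lies within an exon of Xndc1. The windows differed in base composition: GC content was 76.4% for Gnao1, higher than 96.9% of all windows, 59.2% for Tfap2e, 50.8% for Trpc2, 48.8% for Gucy1b2 and 47.6% for Meis2. CpG dinucleotides numbered 36 in the Gnao1 window, 15 in that of Tfap2e, 7 each in those of Gucy1b2 and Meis2 and 4 in that of Trpc2, with a median of 6 over all windows.

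Gnao1 (ENSMUSG00000031748.16, chromosome 8, 93809966 to 93969388, plus strand) encodes the G protein alpha subunit of basal vomeronasal neurons and is also abundant in neurons at large. It had 3510.4, 5101, 3857 and 4063 scaled reads across controls 1 to 4, against 3884, 3952, 4304 and 3554 across deletion libraries 1 to 4. Control replicate 2 stood above all other libraries, and the groups overlapped. The means were 4133 ± 684 and 3923 ± 308 (SD, n = 4 each), and the log2 fold change was -0.064 ± 0.11 (SE; 95% interval -0.30 to 0.17; limma adjusted p = 0.902). The sign rested on control replicate 2, without which the value was 0.041. It was -0.11 without deletion replicate 3.

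Control replicate 2 also had the highest levels of Gad1 and Th, genes of olfactory bulb interneurons. Gad1, which makes the transmitter GABA, had 21.9, 92.4, 39.9 and 12.8 scaled reads across controls 1 to 4, against 3.25, 3.30, 8.53 and 17.4 across deletion libraries 1 to 4. Th, the dopamine-synthesis enzyme of bulb interneurons, had 44.4 in control replicate 2 and 1.10 to 25.8 elsewhere. The summed full bulb list of 10 genes, of which Calb2 made up 33.5%, did not follow it. The sum was 683 CPM in control replicate 2, 764 to 799.7 in the other controls and 690.0 to 818 in deletion libraries. Of the 10, 9 were tested, with 0 called and 2 at an unadjusted p under 0.05 (limma, 3.5% of all tested genes). Estimates were positive for 5 and negative for 4, with log2 fold changes from -2.14 to 0.27. The part of bulb RNA in the Gnao1 values was not tested.

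Gnai2 (ENSMUSG00000032562.13, chromosome 9, 107614125 to 107635367, minus strand) encodes the alpha subunit of apical vomeronasal neurons and is the main inhibitory subunit of white blood cells. It had 2889, 2394, 2423 and 2992 scaled reads across controls 1 to 4, against 2978, 2870.5, 3092 and 2667 across deletion libraries 1 to 4. Control replicates 2 and 3 were the lowest libraries, and the groups overlapped. The means were 2674 ± 311 and 2902 ± 181 (SD, n = 4 each). The log2 fold change was 0.12 ± 0.09 (SE; 95% interval -0.08 to 0.32; limma adjusted p = 0.869), and 0.092 without deletion replicate 3, 0.072 without control replicate 2 and 0.078 without control replicate 3. Gnai2 was highest, in each group, in the library with the highest summed immune markers. That sum was 162 CPM in control 4 (other controls, 107 to 139) and 232 CPM in deletion library 3 (other deletion libraries, 127 to 158). Lyz2, a lysozyme of myeloid cells, made up 70.3% of the sum. Ptprc, the general white blood cell marker, did not follow Gnai2 among controls: it was highest in control replicate 2, at 439.9 scaled reads against 419.9 in control replicate 4, and in deletion libraries was highest in replicate 3, at 666. Of the 9 immune markers 7 were tested, and Cd3e and Cd79a, which define T and B cells, had 2 to 24 reads per library. Their part in the Gnai2 values was not tested.

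Meis2 (ENSMUSG00000027210.20, chromosome 2, 115863064 to 116065839, minus strand), a homeodomain factor, was the steadiest of the tested members. It had 983, 1257, 1145 and 1166 scaled reads across controls 1 to 4, against 1195, 1156, 1073 and 1174 across deletion libraries 1 to 4. The control libraries enclosed all deletion libraries. The means were 1138 ± 114 and 1149.5 ± 53.4 (SD, n = 4 each). The coefficient of variation over the 8 libraries was 7.22%, against 9.50% for Gnai2, 12.5% for Gnao1 and 31.6% for Gucy1b2. The log2 fold change was 0.019 ± 0.089 (SE; 95% interval -0.17 to 0.21; limma adjusted p = 0.963). Its sign was negative with edgeR, with library totals as the scaling and without control replicate 1, all values close to 0. Without deletion replicate 3 it was 0.052.

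Tfap2e (ENSMUSG00000042477.7, chromosome 4, 126716006 to 126736240, minus strand), the AP-2 factor of basal vomeronasal neurons, was close to the limit of detection. It had 0, 4, 11 and 2 reads across controls 1 to 4, against 1, 4, 5 and 2 across deletion libraries 1 to 4. Control replicate 3 held 11 of the 17 control reads. That library had the most vomeronasal receptor reads, and also the most rows with at least 1 read, at 45146. Its Lcn3 and Lcn4 values, 8346 and 5132 scaled reads, were the lowest of the controls. Which cells gave the 11 reads was not tested. Pooled reads gave a deletion-over-control ratio of 0.714 (95% counting interval 0.311 to 1.59), and the scaled values did not differ beyond their spread (exact permutation test, two-sided, p = 0.8 over 70 splits; the smallest p possible is 0.0286). Without control replicate 3 the ratio was 1.63 (0.566 to 5.29), so its direction turned on that library. Intervals and floors cover counting error only. For control replicate 1, 0 of 50748777 reads allows up to 0.0591 CPM, counting 3 reads as the limit.

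**Figure D3:**
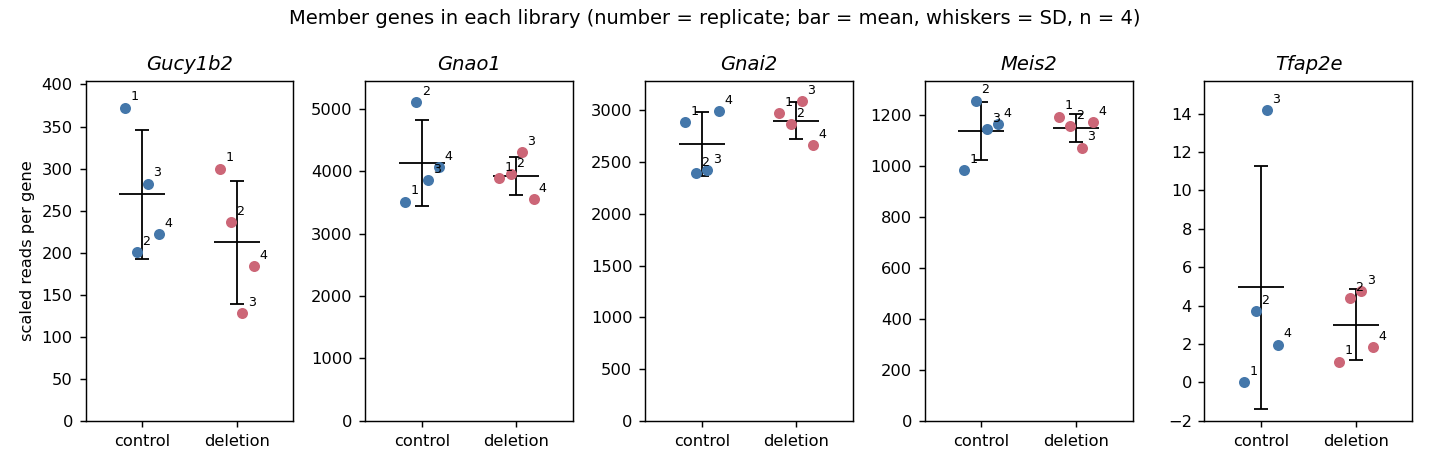
Scaled reads of the 5 members with reads in each library (the digit is the replicate; bar, mean; whiskers, SD, n = 4; the Tfap2e axis extends below 0 only for the whisker). The groups overlap in every panel, Gucy1b2 is lowest in deletion replicate 3 at 128, and Tfap2e stays under 15 scaled reads.

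Over the whole table, limma called 16 of the 21974 genes tested (adjusted p under 0.05), or 0.0728%, with 0.0137% higher and 0.0592% lower in deletion libraries. None of the 4 tested members was among them, 0 of 4 had an unadjusted p under 0.05, and edgeR and DESeq2 also called 0 of them. Their log2 fold changes lay between -0.37 and 0.12, inside the central 95% of tested genes, -0.82 to 0.35. The intervals were narrow for Gnao1, Gnai2 and Meis2, whose bounds all lay within -0.30 to 0.32, and wide for Gucy1b2. In the authors' deposited table, the adjusted p-values of Gucy1b2 and Gnai2 were 0.923 each, and those of Gnao1, Tfap2e and Meis2 were 0.932, 0.934 and 0.983.

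**Figure D4:**
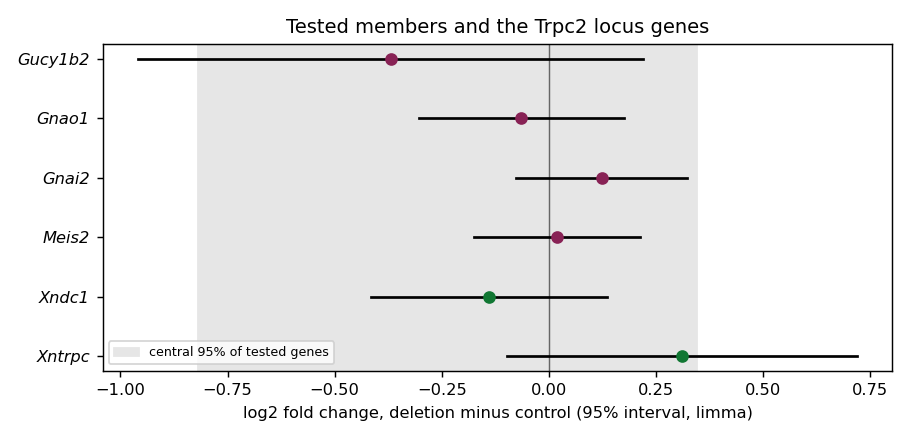
Log2 fold change, deletion minus control, of the 4 tested members (dark red) and of Xndc1 and Xntrpc (green), with 95% intervals from limma; the grey band holds the central 95% of tested genes, -0.82 to 0.35. All 6 intervals include 0, and that of Gucy1b2 is the widest.

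Per length, the members formed 4 separate levels. Over all libraries Gnai2 had 738 scaled reads per kb of merged exons, Gnao1 364, Meis2 94.97, Gucy1b2 87.7 and Tfap2e 1.91. Gnai2 was above Gnao1, and Gnao1 above Meis2, in 8 of 8 libraries, and Gucy1b2 was above Tfap2e in 8 of 8. Meis2 and Gucy1b2 did not separate per length, with Meis2 higher in 5 of 8 libraries. Before division by their merged lengths of 12043 and 2745 bases, Meis2 was higher in every library. It had 983 to 1257 scaled reads, against 128 to 373 for Gucy1b2. Gnai2 stood above 94.3% of the 48117 rows with reads and a length, Gnao1 above 88.3%, Meis2 above 75.6%, Gucy1b2 above 75.0% and Tfap2e above 29.8%. Exon lengths merge all annotated transcripts, so long or little-used exons lower these values. The order of Gnai2 and Gnao1 rests on their merged lengths of 3779 and 11053 bases. Before division by length it was the reverse in every library, with means of 2788 scaled reads for Gnai2 and 4028 for Gnao1.

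Within their families the members ranked differently. Among the listed alpha subunits, Gnal, which couples odorant receptors to adenylyl cyclase, was far above the rest at 7561 scaled reads per kb. Gna12 at 996 was the only other above Gnai2. Gnas was at 13.4, but 8729 of its 11186 exon bases lie in no other gene. Its row therefore does not measure the whole gene, and its rank is uncertain. Gucy1b2 was the highest of the soluble guanylyl cyclase subunits, above Gucy1a3 at 29.7, Gucy1b3 at 28.6 and Gucy1a2 at 9.65. The size of its lead over Gucy1a3 rests on their merged lengths of 2745 and 6968 bases. Before division by length the means were 241 and 207 scaled reads. Gucy1a3 was then the higher of the 2 in control replicate 2 and deletion replicate 3. Gucy1a3 and Gucy1b3 encode the subunits of the common, widely expressed enzyme. Tfap2e was well below Tfap2b at 71.9, Tfap2c at 47.2 and Tfap2a at 7.54. Meis2 was below Meis3 at 137 and Meis1 at 135, and below 5 of the 6 Pbx and Pknox partner genes, with Pknox1 highest at 479. The order of Meis2 and Meis3 rests on their merged lengths of 12043 and 3173 bases. Before division by length it was the reverse in every library, with means of 1144 and 435 scaled reads. Meis1 stayed above Meis2, with a mean of 1421 scaled reads.

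**Figure D5:**
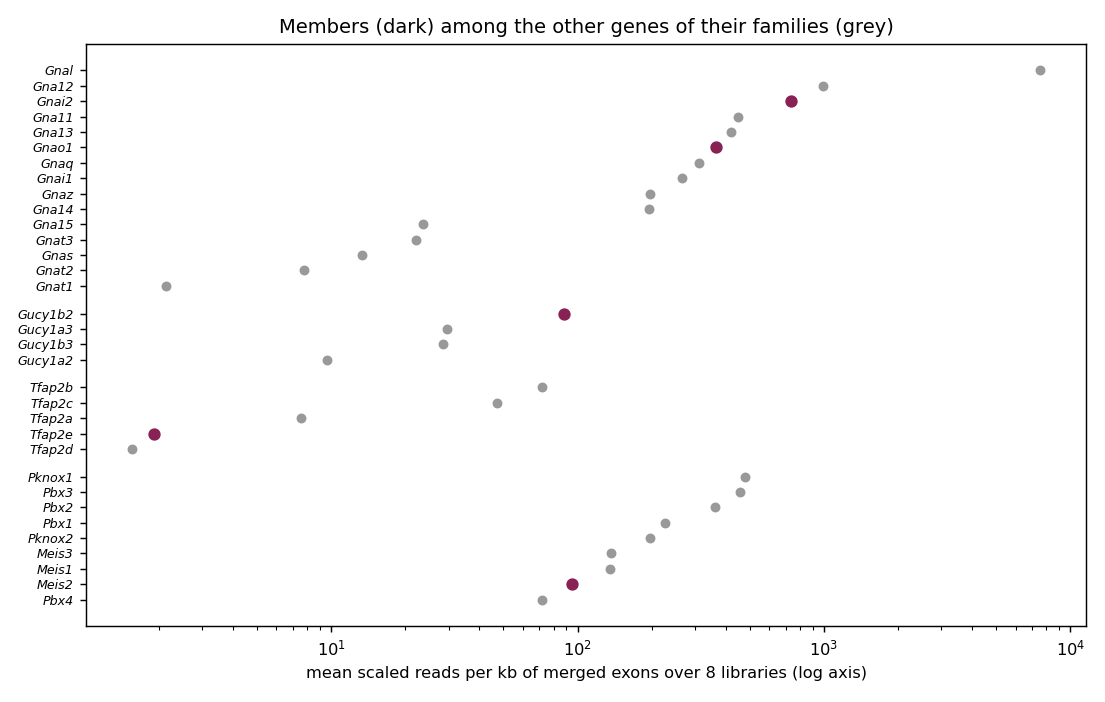
Mean scaled reads per kb of merged exons over 8 libraries (log axis) for the members, dark, and other genes of their families, grey, sorted within each family. Gucy1b2 leads its family at 87.7, Gnai2 at 738 stands below Gnal and Gna12 only, and Tfap2e is near the bottom of the AP-2 genes at 1.91.

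The other genes of these pathways were taken from 11 lists. These covered transduction partners, formyl peptide receptors, H2-M genes, gland lipocalins, guidance and identity genes, cyclic nucleotide handling and gene families. The Vmn1r and Vmn2r receptors were not among them. Leaving out members, 91 of the 95 listed symbols were in the table, 77 were tested, and 0 were called in either direction (limma; also 0 by edgeR and DESeq2). At an unadjusted p under 0.05 there were 3 of 77, against 3.5% of all tested genes, and their adjusted p was 0.869 each. The median log2 fold change over the 77 was -0.011, against 0.018 over all tested genes. Of the 77 estimates 37 were positive and 40 negative.

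Among the 16 transduction partners, Gnb2, a G protein beta subunit, had a control mean of 3271 ± 397 scaled reads and a deletion mean of 3787 ± 281 (log2 fold change 0.22, limma adjusted p = 0.869). Gnb1, the most abundant partner, was at 66480.3 ± 3104 and 69239 ± 990.2. Kcnn3, a calcium-activated potassium channel, was at 314 ± 31.8 and 272 ± 36.8. Rtp1, a chaperone that brings receptors to the membrane, had a log2 fold change of 0.12 and Asph one of 0.15. Estimates were positive for 11 and negative for 5 of the 16.

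Of the alpha subunits, Gna14, a Gq-class subunit, had the smallest unadjusted p, with 643, 533, 513 and 677 scaled reads across controls 1 to 4, against 722, 719, 867 and 674 across deletion libraries 1 to 4. Only control replicate 4 reached into the range of the deletion libraries. Its log2 fold change of 0.34 ± 0.12 (SE) did not pass (limma adjusted p = 0.869). Gna15 was at 0.39, Gna13 at 0.12 and Gnal at 0.11, also not called.

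The H2-M genes had 3 tested members, all with lower estimates in deletion libraries. H2-M10.6 had 54.3, 46.2, 32.2 and 30.5 scaled reads across controls 1 to 4, against 32.5, 26.4, 7.58 and 24.7 across deletion libraries 1 to 4. Its log2 fold change was -0.94 with an SE of 0.41 (limma adjusted p = 0.869). Deletion replicate 3 was lowest, and deletion replicate 1 overlapped the controls. H2-M10.3 was at 76.0 ± 21.9 and 53.8 ± 17.9, and H2-M10.2 at 22.4 ± 12.2 and 14.2 ± 5.86. These genes are near-identical paralogs, so reads may be split among them.

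The identity and guidance list had 12 tested genes, 2 with positive and 10 with negative estimates and a median of -0.084. Nrp2, a semaphorin receptor of apical vomeronasal axons, was at 7754 ± 861 in controls and 7347 ± 745 in deletion libraries. Kirrel2, an adhesion molecule of olfactory axons whose level follows neuronal activity, was at 26091 ± 9342 and 23971 ± 10906, with a spread larger than its difference. The axon guidance gene Slit1 had a log2 fold change of -0.15, the adhesion gene Kirrel3 0.14 and the Notch ligand Dll4 -0.21. Of the guanylyl cyclase subunits, Gucy1a3 was at 214 ± 40.5 and 199.5 ± 46.3, Gucy1b3 at 117 ± 16.8 and 107 ± 22.8 and Gucy1a2 at 70.1 ± 18.01 and 58.2 ± 11.8. Cnga2, the olfactory cyclic nucleotide-gated channel that type B cells also have, had a log2 fold change of 0.095, its partner subunit Cnga4 0.13, and the adenylyl cyclase Adcy3 -0.014. The phosphodiesterase gene Pde2a had a log2 fold change of -1.0 (SE 0.51) from 3 to 20 reads per library, and since 2194 of its 6149 exon bases lie in no other gene, its row does not measure the whole gene. Of the TRPC channels, Trpc1 was the most abundant at 3675 ± 378 and 3809 ± 171, and Trpc4 and Trpc5 had log2 fold changes of 0.024 and -0.58. The AP-2 list gave 3 tested genes, with estimates from -0.55 to -0.097, and the Meis and Pbx list 8 tested genes, from -0.089 to 0.13. None of these was called (limma; smallest adjusted p = 0.869).

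For each member above 100 scaled reads, the 3 genes most like it across libraries were found among 14692 genes, by Pearson r of group-centred log2 values over 8 libraries. As the highest of so many comparisons over few libraries these r are high by selection, and they describe the libraries only. Gnai2 was most like Ctsd, Ctsz and Lipa (r = 0.994, 0.994 and 0.990), which encode the lysosomal enzymes cathepsin D, cathepsin Z and acid lipase. Gnao1 was most like Mdc1, Bahcc1 and Nectin1 (r = 0.990, 0.990 and 0.989), each highest in control replicate 2. Gucy1b2 was most like Tmem230, Flad1 and Itpkc (r = 0.992, 0.986 and 0.984). Meis2 was most like Nrbp2, Whrn and Ankrd24 (r = 0.975, 0.971 and 0.965). Between members, r was -0.63 for Gucy1b2 with Gnao1, 0.58 for Gnao1 with Meis2 and -0.57 for Gnai2 with Meis2. The remaining pairs were nearer 0, at -0.25 for Gnao1 with Gnai2, -0.23 for Gucy1b2 with Meis2 and 0.10 for Gucy1b2 with Gnai2. No pair was tested.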

How the data were processed

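RNA libraries were made with a stranded, ribosome-depleted total RNA kit, per the labels' protocols. STAR 2.6.0, DESeq2 and build GRCm38.p6 are named in the submitters' processing notes, with the read counter not given in the sources used here. Each deposited value of a gene and library is a signal, the read count over a size factor, and whole reads were recovered for 100% of non-zero values within 0.001. The deposited comparison holds a log2 fold change, a statistic used as a score, and p-values, per the file headers. Columns were matched to libraries by group and replicate number. Annotation was GENCODE M21, the same assembly, and 54161 rows matched. Of 43 protein-coding rows with own exon bases only when strand is considered, 40 held 0 reads, so a gene and its antisense partner are not told apart here. This touches 284 of 11053 exon bases of Gnao1.

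Groups were compared with limma (version 3.58.1, R 4.3.3) after log2(scaled reads + 1), a scale that understates the fold of low genes. Variances were moderated with trend and robust options. Genes were kept by filterByExpr of edgeR 4.0.16 at a minimum count of 10, and p-values were Benjamini-Hochberg adjusted over 21974 genes at a threshold of 0.05. The fit was tested on simulated data. edgeR's quasi-likelihood test and DESeq2 1.42.0 on recovered reads, other scalings, pseudocounts, filters and leaving out each library were alternatives, and edgeR called 16 genes. The members and lists were chosen with earlier results of these data known. Named genes were all members, genes overlapping them, up to 3 per list with the smallest p, the 2 per list with the highest mean, and the 3 most like each member. Which marker lists and Meis3 are printed beside a member was chosen after their values were seen.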

Additional observations from a re-analysis of the deposited data

Results flagged for a closer look

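Within each group of 4 libraries, 54 group values were checked for a single library far from the other 3, and 9 stood apart. For independent, normally distributed values, chance alone would give about 1 in 20 such groups. The measures here are linked and some hold few reads, so the 9 cannot be set against that rate. For the Vmn1r receptors these were control replicate 3 at 76.7 CPM (4.24 to 15.02 among the rest), and deletion replicate 4 at 24.0 CPM, against 4.67 to 4.98. For the Vmn2r receptors the same libraries stood apart, control replicate 3 at 45.9 CPM against 5.20 to 10.14 and deletion replicate 4 at 16.2 CPM against 4.15 to 5.45. The vomeronasal formyl peptide receptors had 0.0687 CPM, from 3 reads, in deletion replicate 4 and 0 in the other deletion libraries.

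Control replicate 2 stood apart in 3 measures. Xndc1, which overlaps Trpc2, had 283 scaled reads there and 227 to 234 in the remaining controls. Markers of mature olfactory neurons took 11051 CPM against 12569 to 12747, and sustentacular markers 6574 CPM against 8202 to 8472. Microvillar and tuft markers took 105 CPM in control replicate 4 and 85.9 to 88.5 in the remaining controls.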

How the results depend on the processing

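Across 18 alternatives, none of the 4 tested members was called, with adjusted p from 0.482 (Gnai2 without control replicate 1) to 0.9999 (Meis2), and no gene of the related lists was called. Gucy1b2 and Gnai2 kept their sign in all 18, and ran from -0.56 to -0.15 and from 0.072 to 0.18 when 1 library was left out. Gnao1 ran from -0.14 to 0.041 when 1 library was left out, the positive value without control replicate 2. Meis2 ran from -0.049 to 0.069 on leaving out 1 library, and was -0.0062 with edgeR and -0.010 with library totals. The count of genes called over the table, 16, was 27 with DESeq2, 10 at a mean of at least 50 scaled reads and 13 to 31 when 1 library was left out, 31 without deletion replicate 4. Replicate numbers did not pair the libraries (correlations 0.33, 0.088, -0.17 and 0.053; 3 of 8 libraries correlated best with their own number), and with the replicate block 14 genes were called and no member. The log2 ratio of summed receptor reads, deletion over control, ran from -2.52 to -0.19 for Vmn1r (all libraries, -1.51) and from -1.85 to -0.10 for Vmn2r (-1.19) when 1 library was left out, nearest 0 without control replicate 3. Low reads limit Tfap2e and Xntrpc, and the spread between libraries limits Gucy1b2.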

Other observations

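The ratio of Gnao1 to Gnai2, each in scaled reads per kb, was 0.415, 0.729, 0.544 and 0.464 across controls 1 to 4, against 0.446, 0.471, 0.476 and 0.456 across deletion libraries 1 to 4. The deletion libraries lay within a narrow range, and control replicate 2 was highest. Members were also set against reads of Omp, a marker of mature olfactory neurons. The deletion mean over the control mean was then 0.731 for Gucy1b2, 0.851 for Gnao1, 0.910 for Meis2 and 1.00 for Gnai2. The groups overlapped for each, and no test was made. The lower deletion means of Gnao1 and Meis2 rest on control replicate 2, the highest library for both on this scale. That library had the lowest Omp, at 135973 scaled reads against 170846 to 194812 elsewhere. Among the other controls, Meis2 values enclosed all deletion libraries, and the lowest Gnao1 value was below all deletion libraries.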
